A study of Mus musculus with 113 samples.

Results

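The fibroblast growth factor (FGF) pathway was followed through 10 genes: the ligand *Fgf4*, the receptors *Fgfr1*, *Fgfr2* and *Fgfr3*, the inhibitors *Dusp6*, *Spry1*, *Spry2* and *Spry4*, and the transcription factors *Etv4* and *Etv5*. They were picked by gene symbol, and all 10 were found in each of the 4 expression tables, which together list 23739 genes. The tables hold 13541 genes for the suspension-culture populations, 13738 for the adherent culture, 23107 for the E14 libraries and 11449 for the single cells.

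FGF ligands bind receptor tyrosine kinases at the cell surface and, through RAS, RAF and MEK, activate the kinase ERK. ERK in turn raises the transcription of its own brakes: *Dusp6* encodes a phosphatase that removes the phosphates that activate ERK, and the Sprouty proteins encoded by *Spry1*, *Spry2* and *Spry4* damp signalling between the receptor and RAF. The ETS-family factors *Etv4* and *Etv5* are transcriptional targets of the same pathway and are widely used as its readouts. In mouse embryonic stem cells FGF4 is the main ligand that the cells make themselves, and ERK activity is known to move them out of naive pluripotency and to permit neural commitment.

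Mouse embryonic stem cells (mESC) of the line R1 were differentiated towards neural progenitors by a pair of methods, after 1 passage without feeder cells. In the floating aggregate culture (SFEB, a serum-free method that forms embryoid bodies), cells were kept in a knockout serum replacement medium and moved at day 6 to an N2-supplemented medium; in the adherent monoculture, cells were plated on gelatin in N2B27 medium. In both, cells were replated on coated dishes at day 6. SFEB populations formed a first series of 14 time points from 0 to 142 h and a parallel series of 8 from 0 to 216 h, the adherent culture was sampled at 15 time points from 0 to 216 h, and 8 hand-picked SFEB cells were sequenced at each of the 8 times of the parallel series. Each time point was 1 library. A further 12 libraries came from E14 mESC, wild type (WT) or with the Src-family kinase gene *Fyn* knocked out (Fyn-KO), at day 0 and day 4 of differentiation, with 3 replicates in each of the 4 groups. The knockout was made with Cas9 and a pair of guides and is 1 clone, so an effect of the knockout and a property of the clone cannot be told apart. The labels do not say which differentiation method the E14 cells went through, nor whether replicates were separate cultures, so p-values measure only the spread between these libraries, which may be technical.

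The values are FPKM, fragments per kilobase of transcript scaled to the size of the library, and are thus corrected for transcript length. Read counts were not used here, so the depth of each library cannot be read from the values; a minimum number of reads per library is stated by the study for the single cells and their parallel populations. Genes above 0 numbered 13369 to 13538 in the SFEB populations, 13608 to 13676 in the adherent samples and 15125 to 16474 in the E14 libraries. The labelled course was visible in the markers: the summed FPKM of 8 neural genes went from 203 at 0 h to 1333 at 142 h in the first SFEB series and from 275 to 1254 in the adherent culture, while the sum of the naive pluripotency genes went from 1041 to 53.7 and from 1242 to 139. The 10 fibroblast genes listed as markers of feeder cells summed to 979 at 0 h and 14.4 at 142 h in the first SFEB series, with none at 0. The E14 libraries of a group were not alike in their markers. In WT day 4 replicate 1 the neural sum was 347, against 222 and 191 in the other two, and *Fabp7*, a radial glia gene, was at 47.4 against 0.63 and 7.49. The FPKM of all genes summed to 909369, 687431 and 585912 in WT day 4 replicates 1 to 3, so their marker sums were not read from equal totals. In Fyn-KO day 0 replicate 3 the sum of 5 epiblast genes was 345, against 64.4 and 22.2. In WT day 0 replicate 1 that sum was 113, against 41.7 and 51.6, and in WT day 4 replicate 3 it was 649, against 242 and 328. The mesoderm and endoderm genes summed to 4.32, 24.8 and 32.4 in the WT day 4 replicates and to 21.6, 11.8 and 3.22 in Fyn-KO at day 0. In the Fyn-KO day 4 replicates the epiblast sums were 712, 687 and 803, each above every WT day 4 library. The mesoderm and endoderm sums there were 2.77, 1.37 and 7.33, and the neural sums 122, 225 and 176. The part of these markers in the day 4 comparison of the genotypes was not tested. Values without single libraries are given beside several of the changes, and the wider pathway list is given with all libraries.

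For 7 of the 10 genes RefSeq promoters were used here (mouse build GRCm38.p6), with 9 start sites in all. *Fgfr1*, *Spry4* and *Etv4* were not among them. The 250 bases before the start site are printed here for the following genes, 5′ to 3′ on the gene's own strand. *Fgf4* was high in the first 2 windows and then went down, and *Dusp6* peaked midway. *Etv5* (the more upstream of 2 starts) was also high in the first 2 windows before it went down. *Fgfr3* (the more upstream of 2 starts) went up late. Capitals mark GGAA or TTCC, the core that ETS-family factors recognise, read on either strand. They lie at chr7:144861136-144861385 (plus strand), chr10:99262981-99263230 (plus strand), chr16:22439571-22439820 (minus strand) and chr5:33721474-33721723 (plus strand), in that order.
Fgf4: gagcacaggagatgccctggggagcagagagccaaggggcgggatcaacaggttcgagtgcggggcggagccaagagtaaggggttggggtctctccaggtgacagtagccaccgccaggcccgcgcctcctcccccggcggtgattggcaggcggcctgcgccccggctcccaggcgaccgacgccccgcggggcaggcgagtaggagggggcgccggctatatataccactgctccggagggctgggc
Dusp6: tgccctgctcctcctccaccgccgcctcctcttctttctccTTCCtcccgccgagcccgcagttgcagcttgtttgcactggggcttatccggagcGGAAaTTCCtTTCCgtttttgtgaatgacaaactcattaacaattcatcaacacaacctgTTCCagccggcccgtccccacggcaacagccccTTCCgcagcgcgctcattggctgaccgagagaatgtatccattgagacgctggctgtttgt
Etv5: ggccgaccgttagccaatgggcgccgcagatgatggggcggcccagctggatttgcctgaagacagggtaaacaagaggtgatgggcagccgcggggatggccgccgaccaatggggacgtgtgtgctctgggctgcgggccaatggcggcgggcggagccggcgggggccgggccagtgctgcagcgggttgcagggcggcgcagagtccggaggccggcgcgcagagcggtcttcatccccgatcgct
Fgfr3: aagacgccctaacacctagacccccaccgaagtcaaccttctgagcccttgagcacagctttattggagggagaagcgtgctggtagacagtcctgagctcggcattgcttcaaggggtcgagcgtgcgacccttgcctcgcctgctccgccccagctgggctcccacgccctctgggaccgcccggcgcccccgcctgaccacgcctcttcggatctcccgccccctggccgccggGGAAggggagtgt

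The *Dusp6* window held 6 of these 4-base cores, a number reached by 8.69% of the 32851 mouse promoters searched over the same length. The windows of *Fgf4* and of the upstream *Etv5* start held none, as did 6.55% of all promoters. *Fgfr3* had 1 at the upstream and 5 at the downstream start, *Spry2* had 3, *Fgfr2* had 2 and *Spry1* had 1, and the downstream *Etv5* start had 4. The core occurred in 93.4% of all promoters, with a median of 3 a window. The longer form CCGGAA, which contains GGAA and was searched on both strands, was in 12% of promoters and in 0 of the 9 windows of these genes. A match describes the letters only.

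**Figure D1:**
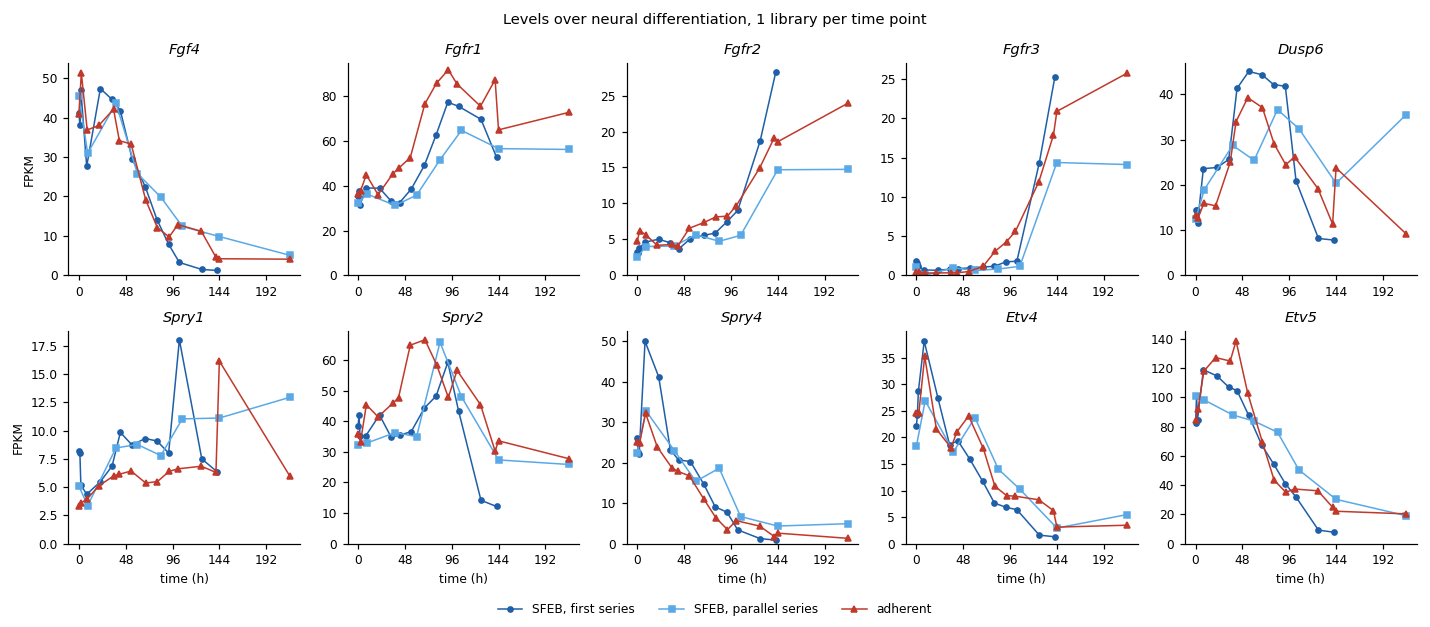
FPKM of the 10 genes (linear y axis) against hours of differentiation (x axis), with 1 panel a gene and 1 point a library, in the first SFEB series, the parallel SFEB series and the adherent culture. *Fgf4*, *Spry4*, *Etv4* and *Etv5* end far below their start, *Fgfr2* and *Fgfr3* end above it, and *Dusp6* is highest midway, near 54 h in the first series and the adherent culture.

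To ask when the genes changed, the courses were divided into 4 windows: 0 to 22 h, 34 to 60 h, 68 to 106 h and 126 to 216 h. They held 7, 5, 6 and 4 SFEB samples and 4, 3, 4 and 4 adherent samples. Changes between neighbouring windows were tested with limma on log2(FPKM + 1), a scale on which a change of a low gene is understated, and p-values were adjusted over all genes tested. The time points of a window are not replicates, since their spread holds the time course, and the SFEB values had been batch-corrected before deposit, so these p-values are uncertain. Neighbouring windows did not overlap, with every sample of one above or below every sample of the other, for 18.5%, 25.1% and 27.9% of all genes at the 3 SFEB steps and for 22.5%, 43.1% and 27.8% at the 3 adherent steps. In such bulk samples, fewer cells that express a gene and less RNA per cell cannot be told apart.

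The ligand *Fgf4* fell in both cultures after the second window. In SFEB its lowest, median and highest FPKM were 27.7, 41.2 and 47.4 in the first window and 25.8, 41.8 and 44.6 in the second. They were 3.25, 13.3 and 22.5 in the third window and 1.21, 3.28 and 9.83 in the fourth. Adherent medians were 39.5, 34.1, 12.5 and 4.39. Its second window did not overlap the third in either culture. *Fgf4* fell by 1.58 ± 0.38 (SE, log2) from the second to the third SFEB window (adjusted p = 0.00354) and fell by 1.52 ± 0.41 from the third to the fourth (adjusted p = 0.00462). Over the same steps of the adherent culture it fell by 1.41 ± 0.27 (adjusted p = 0.0015) and fell by 1.11 ± 0.25 (adjusted p = 0.00893). The SFEB series diverged at the end: at 142 h in the first series *Fgf4* was at 1.21, and at 144 h in the parallel series at 9.83, where the naive marker sums were 53.7 and 265. What part that difference in markers had in the *Fgf4* values was not tested.

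The 3 receptors followed different schedules. In SFEB, *Fgfr1*, which encodes the receptor that these stem cells express most, rose in the third window, and *Fgfr2* and *Fgfr3*, both receptors of neural progenitors, rose in the fourth. In the adherent culture all 3 rose in the third window, and *Fgfr2* and *Fgfr3* rose again in the fourth. *Fgfr1* had SFEB medians of 36.4, 33.1, 63.8 and 56.5 FPKM over the 4 windows. Its second window ran from 31.3 to 38.6 and the third from 49.2 to 77.4, with no overlap. It rose by 0.86 ± 0.11 between these windows in SFEB (adjusted p = 3.69e-05) and by 0.79 ± 0.11 in the adherent culture (adjusted p = 0.000246), where its medians were 37.0, 47.9, 85.8 and 74.3. From the third to the fourth window the differences were -0.10 in SFEB (adjusted p = 0.528) and -0.18 in the adherent culture (adjusted p = 0.238).

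*Fgfr2* was low in the first SFEB window, at 2.56 to 5.03 FPKM with a median of 3.73. The median was 4.51 in the second window and 5.72 in the third, and the fourth ran from 14.7 to 28.2 around a median of 16.7, above every earlier sample. The step into the fourth window was 1.42 ± 0.18 in SFEB (adjusted p = 6.22e-06) and 1.10 ± 0.17 in the adherent culture (adjusted p = 0.00112). In the adherent culture *Fgfr2* had already risen in the third window, from a median of 4.29 to one of 8.18 (0.67 ± 0.18, adjusted p = 0.0107), a call that was lost without 35.5 h or 41.5 h (adjusted p = 0.0562 and 0.0554). The SFEB step at that stage was 0.38 ± 0.17 (adjusted p = 0.0939). All adherent genes shifted up there by a median of 0.16, and with quantile normalization the adherent step of *Fgfr2* was 0.37 (adjusted p = 0.0916). The difference between the cultures was not tested, because their tables were normalized separately.

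*Fgfr3* had the steepest course of the receptors. SFEB samples before 126 h lay between 0 and 1.88 FPKM, the 0 being a batch-corrected value of -0.164 at 9 h in the parallel series that was set to 0. In the fourth window the values were 14.4 at 126 h, 25.3 at 142 h, 14.4 at 144 h and 14.1 at 216 h. That step was 2.96 ± 0.22 (adjusted p = 1.22e-08). The adherent culture had 0.286 to 0.446 in its first window, 1.14 at 68.5 h, 4.30 at 92.5 h and 25.8 at 216 h. Its steps were 1.61 ± 0.30 into the third window (adjusted p = 0.00134) and 2.22 ± 0.28 into the fourth (adjusted p = 0.000295). Into the third SFEB window the difference was 0.30 (adjusted p = 0.276).

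*Dusp6*, the ERK phosphatase, had its maximum midway, at 54.5 h in the first SFEB series, 84 h in the parallel series and 53.5 h in the adherent culture, though the parallel series still held 35.5 FPKM at 216 h against 36.6 at 84 h. SFEB medians were 14.4, 28.7, 39.2 and 14.2 FPKM. The first series climbed from 14.4 at 0 h to 45.1 at 54.5 h, 5.79 times its lowest value of 7.78 at 142 h. The adherent peak was 39.3 at 53.5 h, 2.96 times the value at 0 h. The first and second windows did not overlap in either culture, and the gene rose between them by 0.93 ± 0.29 in SFEB (adjusted p = 0.0147) and 1.13 ± 0.26 in the adherent culture (adjusted p = 0.0133). It fell by 1.20 ± 0.32 into the fourth SFEB window (adjusted p = 0.00428) and by 0.92 ± 0.24 into the adherent one (adjusted p = 0.0171). The SFEB fall rested on the first series. There the late values were 8.14 and 7.78 and the fall was 2.04 (adjusted p = 0.000944), while the parallel series had 20.3 and 35.5 and a difference of -0.34 (adjusted p = 0.392). The markers of these late libraries differed too: the fibroblast sums were 15.2 and 14.4 in the first series and 43.4 and 112 in the parallel one, the mesoderm and endoderm sums 10.9 and 12.1 against 37.6 and 26.9, and the naive sums 74.0 and 53.7 against 265 and 125. Their part in the *Dusp6* values was not tested.

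The Sprouty genes did not move as a group. *Spry1* was the lowest of the 3 at the start, with medians of 5.19, 8.73, 9.20 and 9.31 FPKM in SFEB and 3.79, 6.14, 5.95 and 6.58 in the adherent culture. Its first step was 0.55 ± 0.20 in SFEB (adjusted p = 0.0354) and 0.53 ± 0.25 in the adherent culture (adjusted p = 0.184). The SFEB call was lost in 8 of the 12 fits that each left out 1 sample of these windows: 2, 8, 42.5 or 54.5 h of the first series or 0, 9, 38 or 60 h of the parallel series (adjusted p of 0.0513 to 0.0865). Single libraries stood far above their neighbours: 18.0 at 103 h in the first SFEB series, between 8.02 at 92 h and 7.50 at 126 h, and 16.2 at 144 h in the adherent culture, between 6.31 at 140.5 h and 6.01 at 216 h. In these same libraries the summed mesoderm and endoderm markers were 26.8, between 9.53 at 92 h and 10.9 at 126 h, and 67.4, between 11.01 at 140.5 h and 40.5 at 216 h. At 84, 106, 144 and 216 h of the parallel series that sum was 30.1, 49.6, 37.6 and 26.9, with *Spry1* at 7.79, 11.04, 11.1 and 12.9. The part of that in the *Spry1* values was not tested.

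*Spry2* was the most abundant of the inhibitors at the start by FPKM, and in SFEB it rose in the third window before it fell. Its SFEB medians were 35.3, 35.4, 48.1 and 20.02 FPKM, with the third window (43.4 to 65.8) above the second (34.7 to 36.6) and the fourth (12.1 to 27.4) below it, without overlap. The rise was 0.50 ± 0.16 (adjusted p = 0.0181) and the fall was 1.39 ± 0.17 (adjusted p = 3.12e-06). Adherent medians were 38.7, 47.7, 57.6 and 31.9, the step into the third window was 0.13 (adjusted p = 0.579), and the last fall was 0.74 ± 0.16 (adjusted p = 0.00707).

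*Spry4* peaked within hours of the start and was far lower at the end. In the first SFEB series it was at 26.1 FPKM at 0 h, 49.9 at 8 h, 1.92 times the start, and 0.87 at 142 h. The parallel series had 22.4 at 0 h, 32.8 at 9 h and 4.92 at 216 h, and the adherent culture 25.02 at 0 h, 32.2 at 8.5 h and 1.31 at 216 h. The peak was 57.4 times the lowest value in the first series, 7.53 times in the parallel series and 24.6 times in the adherent culture. The peak stood at 8 to 9 h in each of the 3 courses, each time in 1 library. *Spry4* fell by 1.11 ± 0.33 into the third SFEB window (adjusted p = 0.0141) and by 1.54 ± 0.36 into the fourth (adjusted p = 0.00141). The adherent course fell by 1.39 ± 0.29 (adjusted p = 0.00253) and fell by 1.11 ± 0.27 (adjusted p = 0.013).

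The transcription factor *Etv4* had the same early maximum. It went from 22.2 FPKM at 0 h to 38.1 at 8 h and 1.29 at 142 h in the first series, from 18.4 to 26.9 at 9 h and 5.47 at 216 h in the parallel series, and from 24.5 to 35.3 at 8.5 h and 3.47 at 216 h in the adherent culture. Its SFEB medians were 26.9, 18.6, 8.95 and 2.27, and it fell by 0.97 ± 0.23 (adjusted p = 0.00293) and 1.53 ± 0.24 (adjusted p = 4.83e-05) over the last 2 steps. The adherent course fell by 0.84 ± 0.28 (adjusted p = 0.0285) and 1.05 ± 0.26 (adjusted p = 0.0141). The first of these calls was lost without any of 35.5, 41.5, 53.5, 80.5, 92.5 or 101.5 h (adjusted p of 0.0532 to 0.0781), and the second without 68.5 h or 216 h (adjusted p = 0.0559 and 0.0550).

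*Etv5* was the most abundant of the 10 at the start by FPKM, and its high level lasted longer. The first series ran from 82.2 at 0 h to 119 at 8 h, stayed at 105 at 42.5 h and reached 7.79 at 142 h. The adherent culture peaked at 138 at 41.5 h and ended at 20.3. Medians were 101, 88.0, 52.4 and 14.2 in SFEB and 105, 125, 40.4 and 23.5 in the adherent culture, and the second window did not overlap the third in either. *Etv5* fell by 0.85 ± 0.25 (adjusted p = 0.0107) and then 1.76 ± 0.26 (adjusted p = 2.45e-05) in SFEB. The adherent samples fell by 1.42 ± 0.23 (adjusted p = 0.000525) and then 0.80 ± 0.22 (adjusted p = 0.0199).

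**Figure D2:**
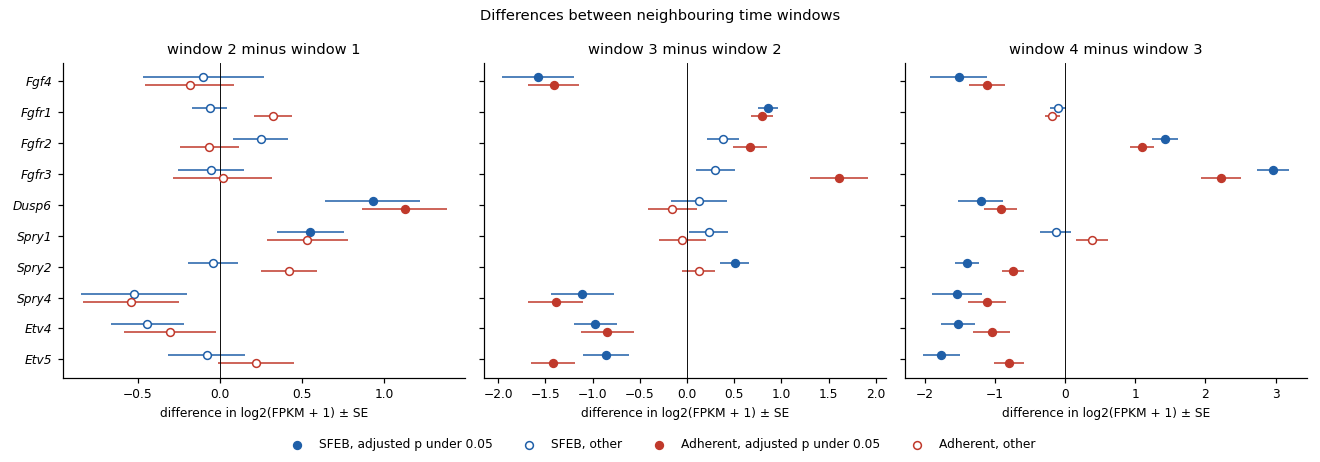
Change between neighbouring windows (x axis, log2 of FPKM + 1, with bars for 1 SE) for each gene (y axis) in SFEB and in the adherent culture; filled points passed the adjusted threshold of 0.05. The first step moves *Dusp6* in both cultures, and the later steps lower *Fgf4*, *Spry4*, *Etv4* and *Etv5*.

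Counted by window, 2 of the 10 genes (*Dusp6* and *Spry1*) changed at the first SFEB step, where 37.6% of all 13363 genes tested did. At the second SFEB step 6 changed, against 32.8% of all genes. Of these 2 were up (21.1% of all genes) and 4 down (11.8%). At the third step 8 changed, against 44.8%, with 2 up (27.6%) and 6 down (17.2%). Of the adherent genes 1 (*Dusp6*) changed at the first step, against 10.6% of 12879 genes. Then 7 changed, against 39.9%, with 3 up (26.5%) and 4 down (13.4%), and at the last step 8, against 20%, with 2 up (14.9%) and 6 down (5.02%). These adherent counts depended on where the windows were divided: with 68.5 and 80.5 h counted in the second window, 4, 1 and 0 of the 10 passed, and no call into the fourth window was left. Leaving out single adherent samples also ended calls of the last step, namely *Dusp6*, *Spry4*, *Etv4* and *Etv5* without 216 h, *Dusp6*, *Etv4* and *Etv5* without 68.5 h, and *Etv5* without 80.5 h or 144 h. The numbers of all genes called moved as well. At the first adherent step 1366 were called, and 625 without 2.5 h and 2157 without 53.5 h were the lowest and highest. The second step had 5139, with 2758 without 35.5 h and 6295 without 53.5 h, and the last had 2572, with 993 without 68.5 h and 3334 without 125.5 h. The median change of the 10 at the last step was -1.30 in SFEB and -0.77 in the adherent culture, where the medians over all genes were 0.05 and 0.06. The 10 genes were chosen with earlier results of these data known. Their counts and medians are thus no independent comparison with all genes. In the parallel SFEB series alone, which has 2 samples a window, 0, 0 and 5 of the 10 passed. The fibroblast sum lay between 147 and 1029 in the first SFEB window and between 20.5 and 79.7 in the second, the step at which *Dusp6* and *Spry1* rose. At the adherent step at which *Dusp6* rose it went from between 150 and 430 to between 70.9 and 122. Its part in either step was not tested.

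The samples of neighbouring windows were also compared for overlap. At the first step *Dusp6* alone was separated in SFEB, against 18.5% of all genes, while in the adherent culture *Fgfr1*, *Dusp6*, *Spry1* and *Spry2* lay wholly above and *Spry4* wholly below the window before, against 22.5%. At the second SFEB step *Fgfr1* and *Spry2* lay wholly above and *Fgf4*, *Etv4* and *Etv5* wholly below the window before, where 25.1% of all genes were separated one way or the other. At the last SFEB step *Fgfr2* and *Fgfr3* lay above and *Spry2*, *Etv4* and *Etv5* below, against 27.9% of all genes. At the second adherent step all 3 receptors lay above and *Fgf4*, *Spry4*, *Etv4* and *Etv5* below, against 43.1%. At the last adherent step *Fgfr2* and *Fgfr3* lay above and *Dusp6*, *Spry2* and *Etv4* below, against 27.8%.

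The wider pathway was described with a list of 70 genes for further ligands, receptors, adaptors, kinases, inhibitors and targets, of which 60 could be tested in SFEB and 55 in the adherent culture. Between the first and second SFEB windows 11 rose and 15 fell, 43.3% of the list against 37.6% of all genes. The largest rises were those of the ligand genes *Fgf5*, an epiblast marker (3.26 ± 0.27, adjusted p = 1.77e-07), *Fgf15* (2.04 ± 0.24, adjusted p = 2.19e-06) and *Fgf8* (1.82 ± 0.21, adjusted p = 1.95e-06). The largest falls were those of *Ier3*, an immediate early gene (-2.30 ± 0.38, adjusted p = 6.88e-05), the mesenchymal ligand gene *Fgf7* (-1.65 ± 0.30, adjusted p = 0.000186) and the ETS factor gene *Elk3* (-1.59 ± 0.18, adjusted p = 2.08e-06). The fibroblast sum dropped at this same step, as given above, and its part in these falls was not tested. At the next step 17 rose and 9 fell, 43.3% against 32.8% of all genes, led by *Flrt3*, which encodes a membrane protein that binds FGF receptors (1.42 ± 0.31, adjusted p = 0.00179), and by the adaptor gene *Gab1* (-1.23 ± 0.21, adjusted p = 0.000282). At the last step 16 rose and 13 fell, 48.3% against 44.8%. *Fgf5* and *Fgf8* then fell by 2.66 ± 0.30 (adjusted p = 1.73e-06) and 2.54 ± 0.23 (adjusted p = 9.71e-08), and *Il17rd*, which encodes a further antagonist of FGF receptors, by 1.94 ± 0.22 (adjusted p = 1.72e-06). The adaptor gene *Gab2* rose by 1.39 ± 0.18 (adjusted p = 4.84e-06).

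In the adherent culture 7 genes of the list rose and 2 fell at the first step, 16.4% against 10.6% of all genes. *Fgf5* rose by 2.17 ± 0.37 (adjusted p = 0.00265), the phosphatase gene *Dusp4* by 1.77 ± 0.25 (adjusted p = 0.000666) and *Fgf15* by 1.51 ± 0.25 (adjusted p = 0.00199), while *Fgf17* (-1.61 ± 0.24, adjusted p = 0.000952) and *Elk3* (-0.67 ± 0.18, adjusted p = 0.0312) fell. The fibroblast sum was between 150 and 430 in the first adherent window and between 70.9 and 122 in the second, and its part in this step was not tested. At the second step 18 rose and 7 fell, 45.5% against 39.9%, with *Fgf15* up by 1.77 ± 0.25 (adjusted p = 0.000232) and *Gab1* down (-1.06 ± 0.15, adjusted p = 0.000263). At the last step 9 rose and 4 fell, 23.6% against 20%, with *Phlda1*, a gene induced by growth factors, up by 1.47 ± 0.20 (adjusted p = 0.000454) and *Il17rd* down (-1.09 ± 0.19, adjusted p = 0.00255). The median change of the list lay between -0.06 and 0.14 over the 6 steps of both cultures, where that of all genes lay between -0.09 and 0.16.

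To see which of the 10 genes kept the same course, all 45 pairs were correlated on log2(FPKM + 1) over the 22 SFEB samples and over the 15 adherent samples, with permutation tests of 100000 resamples and p-values adjusted over the 45 pairs. Neighbouring samples of a course are not independent, so these p-values are too small. The threshold was passed by 30 pairs in SFEB, 15 positive and 15 negative, and by 28 in the adherent culture, 12 positive and 16 negative. With Spearman's rho the numbers were 26 and 28.

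By Pearson's r on the log2 scale the closest pair in SFEB was *Spry4* with *Etv4*; by rho it was *Spry4* with *Etv5* (0.914), and by r on linear FPKM *Fgfr2* with *Fgfr3* (0.968, against 0.927 for *Spry4* with *Etv4*). For *Spry4* and *Etv4* r was 0.961 and rho 0.901 (adjusted p by permutation 3.75e-05 and 5.62e-05), and r was 0.926 without the 2 samples farthest from the median. Within the first series r was 0.977 and within the parallel series 0.908. Over the adherent samples r was 0.957 and rho 0.950. *Fgf4* and *Etv5* had r of 0.955 in SFEB and 0.960 in the adherent culture. The receptors *Fgfr2* and *Fgfr3* went together, with r of 0.892 (rho 0.482, adjusted p by permutation 0.0452) in SFEB and 0.972 (rho 0.957) in the adherent culture, and *Fgfr2* ran opposite to *Etv5*, with r of -0.944 and -0.938.

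*Dusp6* was related to neither *Spry4* nor *Etv5* past the threshold: r with *Spry4* was 0.276 in SFEB (adjusted p by permutation 0.246) and 0.168 in the adherent culture (0.558), and r with *Etv5* was 0.366 (0.121) and 0.275 (0.364). Over all samples of each culture, its closest partner among the inhibitors was *Spry2*, a ranking not meant for the subsets of samples that follow. For this pair r was 0.678 and rho 0.589 in SFEB (adjusted p by permutation 0.000964 and 0.0102) and 0.874 and 0.932 in the adherent culture. Without the 2 SFEB samples farthest from the median r was 0.367 on the log2 scale, and within the parallel series it was 0.445. On linear FPKM r was 0.585, and 0.633 without such samples.

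**Figure D3:**
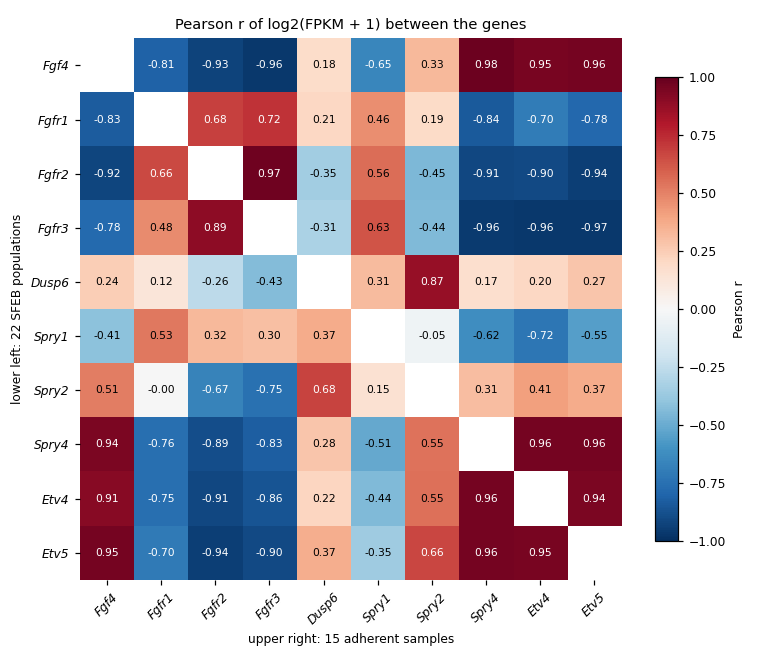
Pearson's r of log2(FPKM + 1) between the 10 genes, with the 22 SFEB samples in the lower left and the 15 adherent samples in the upper right; the colour scale runs from -1 to 1. *Fgf4*, *Spry4*, *Etv4* and *Etv5* form a positive block and run opposite to *Fgfr2* and *Fgfr3*. In SFEB *Fgfr1* also runs opposite to the block, with r of -0.830 with *Fgf4* and -0.704 with *Etv5*. *Spry2* has r of 0.513 with *Fgf4* in SFEB, and *Dusp6* stands between.

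Among 12706 genes of the SFEB and adherent tables, those with the highest r to each of the 10 over the 22 SFEB samples were searched, as a description. *Etv5* was closest to the pluripotency genes *Pou5f1* (r = 0.986, and 0.977 over the 15 adherent samples) and *Zscan10* (0.975 and 0.945). *Fgf4* was closest to *Ooep* (0.983 and 0.914) and *Galt* (0.982 and 0.868), and *Spry4* to *Dppa2* (0.962 and 0.977), followed by *Etv4*, whose own second neighbour was *Nefh* (0.961 and 0.885). *Fgfr3* was closest to *Cyp26b1*, a retinoic acid hydroxylase gene (0.983 and 0.992), and *Wnt7a* (0.978 and 0.982). *Fgfr1* had *Lpar6* (0.955 and 0.856) and *Ctdsp1* (0.950 and 0.849), and *Fgfr2* had *Zik1* (0.967 and 0.721) and *AI429214* (0.967 and 0.914). For *Dusp6*, *Spry1* and *Spry2* the highest SFEB values were lower and did not always carry over: *Dusp6* had *Snrpn* (0.864 and 0.714) and *Kifc2* (0.863 and 0.136), *Spry1* had *Leprel1* (0.805 and 0.740) and *Dcakd* (0.805 and 0.0572), and *Spry2* had *Gcat* (0.871 and 0.612) and *Lefty2* (0.853 and -0.0190).

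In the E14 libraries the question was whether the knockout of *Fyn* altered the genes or their change over 4 days. *Fyn* itself was read at 3.21, 2.74 and 4.00 FPKM in the WT day 0 replicates and 9.44, 4.54 and 6.76 at day 4, against 0.598, 0.598 and 1.10 in Fyn-KO at day 0 and 1.19, 1.13 and 1.58 at day 4. According to the paper, the clone has a deletion that takes in the initiation codon and lacks the protein, and the values here are RNA only. No knockout library reached the lowest WT value. The difference was -1.29 ± 0.24 at day 0 (adjusted p = 0.0601) and -1.74 ± 0.24 at day 4 (adjusted p = 0.0193). *Fgfr3* stayed below 1 FPKM in 10 of the 12 libraries, with 1.12 in WT day 4 replicates 1 and 3, and was not tested, since a gene had to reach 1 FPKM in 3 libraries. The other 9 genes were tested among 12257.

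Over 4 days of differentiation *Fgf4* fell in WT cells, and *Fgfr2*, *Dusp6* and *Spry1* rose. *Fgf4* was at 39.7, 71.7 and 66.2 FPKM at day 0 and 6.87, 24.6 and 25.3 at day 4 (-1.74 ± 0.41, adjusted p = 0.0107). *Fgfr2* was at 0.0924, 0.209 and 0.129 at day 0 and 6.38, 5.95 and 6.09 at day 4 (2.64 ± 0.31, adjusted p = 0.000312). For both genes the days did not overlap, as for 42.2% of all genes. *Etv4* (23.2, 7.08 and 8.33, then 2.50, 5.59 and 4.73) and *Etv5* (97.6, 93.7 and 110, then 24.997, 93.0 and 77.5) also lay wholly lower at day 4. Their differences, -1.26 ± 0.76 (adjusted p = 0.243, and -0.77 with adjusted p = 0.528 without WT day 0 replicate 1) and -0.81 ± 0.37 (adjusted p = 0.13), did not pass. That of *Etv5* was -1.16 (adjusted p = 0.0424) without WT day 4 replicate 2 and -0.24 (adjusted p = 0.397) without WT day 4 replicate 1. *Fgfr1* differed by 0.62 ± 0.36 (adjusted p = 0.224), and by 0.12 (adjusted p = 0.768) without WT day 4 replicate 1.

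*Dusp6* was at 5.85, 0.565 and 0.404 at day 0 and 12.1, 14.3 and 17.3 at day 4 (2.64 ± 0.76, adjusted p = 0.0254). *Spry1* was at 3.03, 2.08 and 2.00, and then 4.10, 10.4 and 13.9 (1.51 ± 0.42, adjusted p = 0.0218). Their days did not overlap either, but both calls were lost when any of several single libraries was left out: that of *Dusp6* in 5 of 6 cases (adjusted p of 0.0527 to 0.0964) and that of *Spry1* in 4 of 6 (0.0637 to 0.0816). So 4 of the 9 genes changed, against 25.8% of all genes, with 3 up (15.5%) and 1 down (10.3%). Without WT day 0 replicate 1 the same 4 genes passed, with *Dusp6* at 3.38 (adjusted p = 0.00925) and *Spry1* at 1.65 (adjusted p = 0.0316). Without WT day 4 replicate 1, the library with the high neural sum, *Fgf4* fell by 1.17 (adjusted p = 0.0167), *Fgfr2* rose by 2.62 (adjusted p = 0.00159), *Spry1* rose by 1.96 (adjusted p = 0.00703) and *Dusp6* stood at 2.76 (adjusted p = 0.0527). Without WT day 4 replicate 3, the library with the high epiblast sum, *Fgf4* and *Fgfr2* passed, while *Dusp6* stood at 2.52 (adjusted p = 0.0706) and *Spry1* at 1.19 (adjusted p = 0.0816). The number of all genes called, 3166, was 1831 without WT day 0 replicate 2 and 1991 without WT day 0 replicate 3.

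In Fyn-KO cells 2 of the 9 genes changed over the 4 days, against 19.3% of all genes. Both were up (11.8% of all genes rose and 7.56% fell). *Fgfr2* went from 0.0192, 0.0893 and 0.689 to 4.05, 12.4 and 8.29 (2.80 ± 0.31, adjusted p = 0.000353). *Spry1* went from 3.60, 1.91 and 6.56 to 8.02, 14.3 and 15.5 (1.50 ± 0.42, adjusted p = 0.0282), a call that was lost without any of 4 single libraries (adjusted p of 0.0786 to 0.122). *Fgf4*, at 38.6, 53.4 and 65.01 and then 29.2, 32.5 and 22.2, differed by -0.87 ± 0.41 (adjusted p = 0.157), and its days did not overlap, as for 38.7% of all genes. *Etv4* differed by -1.64 ± 0.76 (adjusted p = 0.15), and by -0.56 (adjusted p = 0.433) without Fyn-KO day 0 replicate 3. The number of all genes called, 2370, ran from 1041 without Fyn-KO day 0 replicate 2 to 3063 without Fyn-KO day 0 replicate 3.

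The day 0 levels of 3 ERK targets were not alike between replicates. In Fyn-KO, *Dusp6* was at 1.92, 0.347 and 14.1 FPKM in replicates 1 to 3, *Spry4* at 2.38, 0.107 and 37.6, and *Etv4* at 1.66, 2.31 and 27.1. Replicate 3 was the highest for all 3, and it was also the library with the epiblast sum of 345. In WT, replicate 1 was the highest for all 3: *Dusp6* was at 5.85, 0.565 and 0.404, *Spry4* at 6.70, 0.119 and 0.188, and *Etv4* at 23.2, 7.08 and 8.33. The log2 ranges of *Spry4* over the 3 libraries, 2.78 in WT and 5.12 in Fyn-KO, stood at percentiles 99.5 and 99.9 of all genes tested, whose median ranges were 0.40 and 0.42. *Etv5*, by contrast, was at 97.6, 93.7 and 110 in WT and 98.5, 95.6 and 119 in Fyn-KO, with ranges of 0.23 and 0.31. What part the state of these libraries had in the values was not tested.

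Without Fyn-KO day 0 replicate 3, the change over 4 days in the knockout passed the threshold for *Dusp6* (3.18, adjusted p = 0.0031) and *Spry4* (2.41, adjusted p = 0.0427) as well, making 4 of 9 genes. With it, they were at 2.20 ± 0.76 (adjusted p = 0.0634) and 0.98 ± 1.08 (adjusted p = 0.557). At day 4 *Dusp6* was at 18.6, 13.4 and 19.5 in Fyn-KO, and *Spry4* at 13.1, 9.74 and 6.28, beside 4.18, 8.46 and 11.9 in WT.

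**Figure D4:**
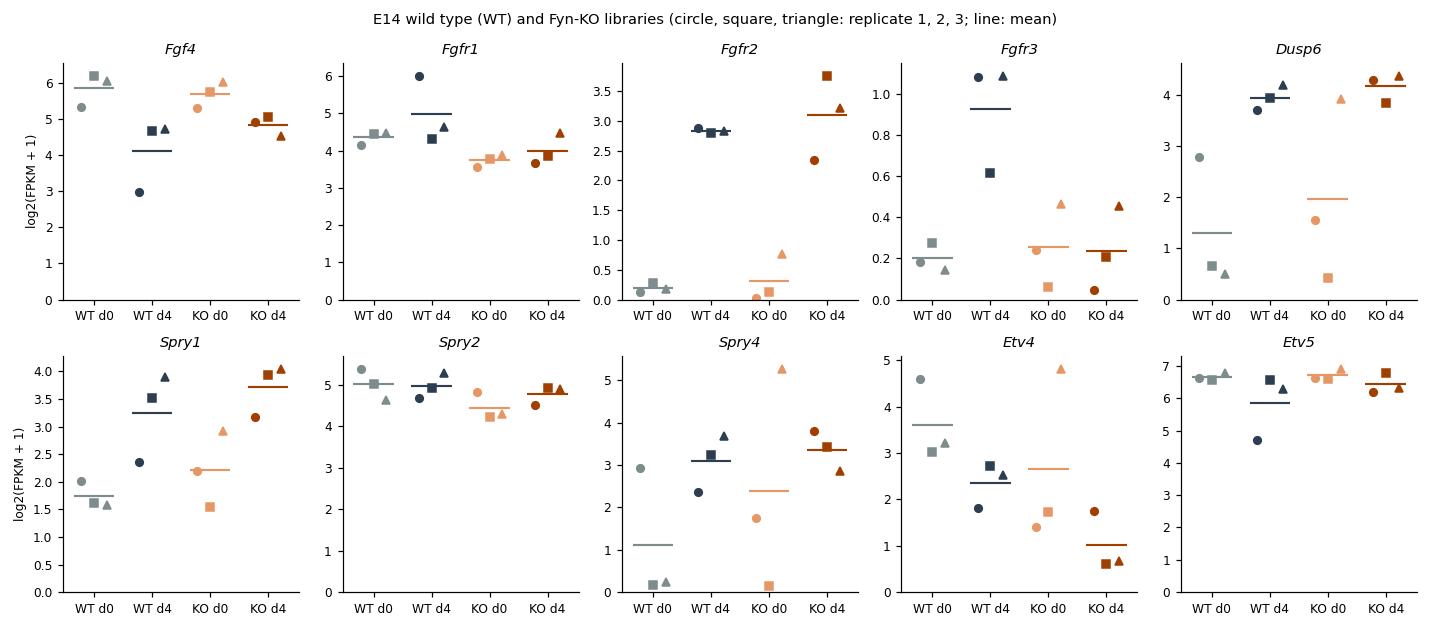
Log2(FPKM + 1) of the 10 genes (1 panel each) in the 12 E14 libraries, with 1 point a library, 4 groups on the x axis and a line at each group mean. *Dusp6*, *Spry4* and *Etv4* have 1 day 0 library far above the other two in each genotype, and *Fgfr2* is higher at day 4 in both.

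Between the genotypes none of the 9 genes passed the threshold in limma at day 0 (against 0.171% of all genes), at day 4 (0.0734%) or in the test of whether the change over 4 days differed (0.0%). At an unadjusted p under 0.05 there was 1 of the 9 genes at day 0, 1 at day 4 and 0 in the test of the changes, where 14.6%, 12.1% and 4.38% of all genes did so. The 21 genes of all that passed at day 0 became 4 without WT day 0 replicate 2 and 128 without WT day 0 replicate 1, and the 9 at day 4 became 5 to 14. At day 0 *Fgfr1* was lower in each Fyn-KO library (10.9, 12.6 and 13.7 FPKM) than in any WT library (16.9, 21.0 and 21.4), where 21.4% of all genes were separated, with a difference of -0.63 ± 0.36 (adjusted p = 0.448). The gene under 0.05 at day 0 was *Spry2*, with 40.8, 31.8 and 23.9 FPKM in WT and 27.3, 17.9 and 18.8 in Fyn-KO (-0.56 ± 0.23, adjusted p = 0.291). At day 4 it was *Fgfr1*, with 62.8, 19.1 and 24.0 in WT and 11.7, 13.5 and 21.4 in Fyn-KO (-0.99 ± 0.36, adjusted p = 0.294). The value of 62.8 was that of the WT library with the high neural sum, and without it the day 4 difference of *Fgfr1* was -0.48 (adjusted p = 0.599).

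*Etv4* lay lower in each Fyn-KO library at day 4 (2.36, 0.528 and 0.601) than in any WT library (2.50, 5.59 and 4.73), with a difference of -1.34 ± 0.76 (adjusted p = 0.509, or -1.61 with adjusted p = 0.649 without WT day 4 replicate 1), where 16.5% of all genes did not overlap in one direction or the other. *Fgf4* at day 4 differed by 0.72 ± 0.41 (adjusted p = 0.514), and by 0.14 (adjusted p = 0.95) without WT day 4 replicate 1. At day 0 *Dusp6* differed by 0.66 ± 0.76, *Spry4* by 1.27 ± 1.08 and *Etv4* by -0.96 ± 0.76 (adjusted p = 0.74, 0.628 and 0.603). Without Fyn-KO day 0 replicate 3 these differences were -0.32, -0.17 and -2.04 (adjusted p = 0.857, 0.949 and 0.103). Without WT day 0 replicate 1 they were 1.39, 2.19 and -0.47 (adjusted p = 0.4, 0.374 and 0.837). The standard errors of *Dusp6*, *Etv4* and *Spry4* in these comparisons were 0.76, 0.76 and 1.08.

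Of the wider list, 53 genes were tested in the E14 libraries. In WT, 12 rose and 3 fell over the 4 days, 28.3% against 25.8% of all genes. *Fgf15* rose by 3.97 ± 0.55 (adjusted p = 0.000726), *Fgf5* by 3.79 ± 0.33 (adjusted p = 0.000107) and *Dusp4* by 3.50 ± 0.41 (adjusted p = 0.000289), and the 3 that fell were *Ksr1*, a scaffold for RAF and MEK (-0.67 ± 0.21, adjusted p = 0.0373), *Gab1* (-0.59 ± 0.16, adjusted p = 0.0223) and *Grb2*, the adaptor that recruits SOS (-0.50 ± 0.13, adjusted p = 0.0191). In Fyn-KO 5 rose and 0 fell, 9.43% against 19.3% of all genes, led by *Fgf5* (4.78 ± 0.33, adjusted p = 2.76e-05), *Dusp4* (3.65 ± 0.41, adjusted p = 0.000353) and *Fgf15* (2.74 ± 0.55, adjusted p = 0.00625). None of the 53 passed limma's adjusted threshold between the genotypes, and at an unadjusted p under 0.05 there were 7 at day 0, 9 at day 4 and 2 in the difference of the changes, where 14.6%, 12.1% and 4.38% of all genes did so.

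In single SFEB cells the values were log10(RPKM + 1), quantile-normalized between cells (RPKM, the same measure counted on reads). Expression was counted as more than 0.5 RPKM. Cells of a time point are not replicates of it, and genes above 0 per cell had medians of 6145 (144 h) to 8972 (0 h), so shares at different times were not read at equal depth. *Etv5*, *Fgfr1* and *Etv4* were found in 62, 61 and 57 of the 64 cells. *Dusp6* was found in 37, *Fgf4* and *Spry2* in 29 each, *Spry1* in 21, *Fgfr3* in 20, *Spry4* in 13 and *Fgfr2* in 9.

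*Fgf4* was found in 6, 4, 8, 6, 3, 2, 0 and 0 of 8 cells at 0, 9, 38, 60, 84, 106, 144 and 216 h, and *Fgfr3* in 2, 0, 1, 1, 0, 2, 7 and 7. At 144 h this was 0 of 8 cells for *Fgf4*, which allows a share of up to 36.9% (exact Clopper-Pearson 95% interval, counting error only), and 87.5% for *Fgfr3* (interval 47.3% to 99.7%). *Dusp6* was found in 2, 2, 4, 2, 6, 6, 8 and 7 cells, with mean RPKM of 1.44, 2.90, 5.32, 11.6, 49.2, 14.2, 27.7 and 85.2. *Spry4* reached 5 of 8 cells at 9 h and 1 or 2 at every other time, and *Spry2* was in 6 cells at 9 h, 7 at 84 h and 7 at 106 h but 0 at 60 h. *Etv5* was in all 8 cells at each time but 144 h, where it was in 6.

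Cell 16 of 216 h went against its label in part. The paper describes it as an outlier that stayed in the starting stage. It had *Pou5f1* at 1.94 and *Nanog* at 1.35 on the log10 scale, where the other 7 cells had medians of 0.57 and 0.19. Those cells reached 1.46 and 0.586 at most. *Esrrb*, *Tbx3* and *Nr0b1* were also above all others, while *Zfp42* (1.18) lay within their range and *Klf4* was at 0. Of the neural genes, *Nes*, *Sox11*, *Fabp7* and *Hes5* were below all others (0.0689, 0.115, 0.275 and 0). *Sox1*, *Pax6*, *Sox2* and *Tubb3* lay within the range of the others. The *Dusp6* value of cell 16 was 0.02, below the 0.86 to 2.40 of the other 7, so that without that cell *Dusp6* was above 0.5 RPKM in 7 of 7 cells at 216 h.

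**Figure D5:**
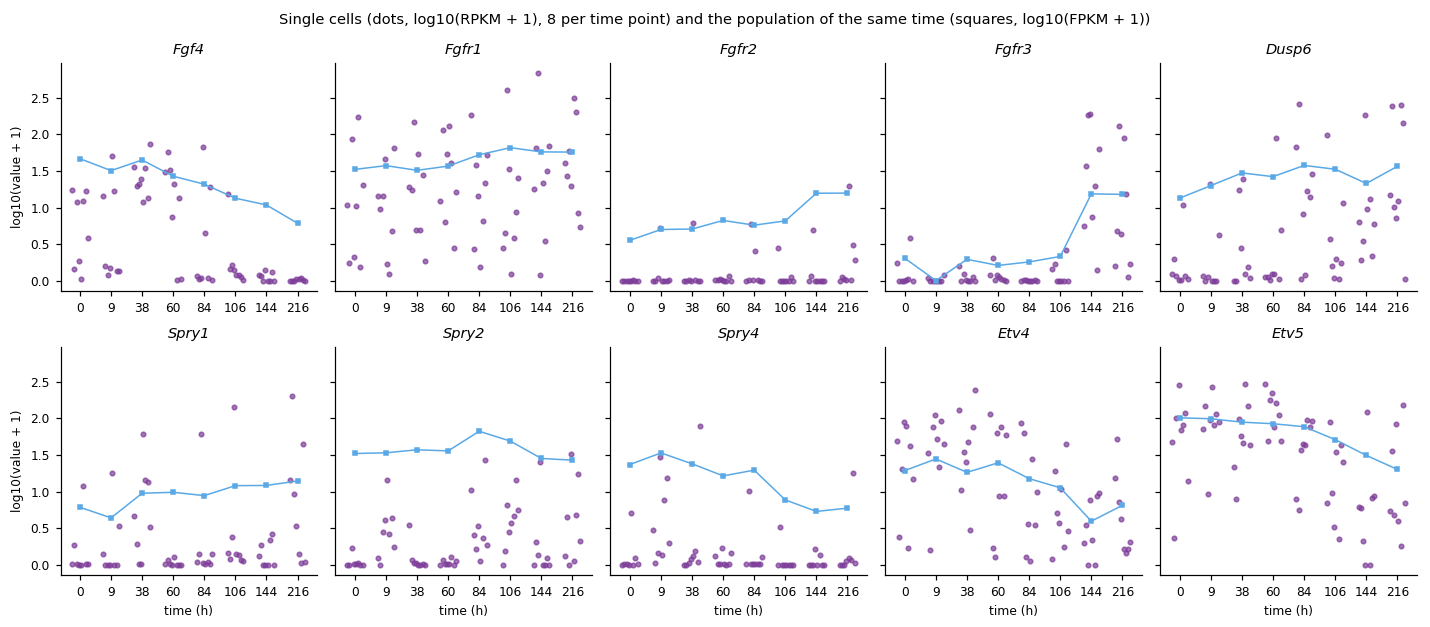
Log10(RPKM + 1) of the 10 genes in 64 single SFEB cells (dots, 8 a time point) and log10(FPKM + 1) of the population sampled at the same time (squares) against hours of differentiation, with the times equally spaced. *Etv5* and *Fgfr1* are read in nearly every cell, *Fgfr3* in most cells of 144 and 216 h, *Spry4* in at most 5 and *Fgfr2* in at most 3 of the 8 cells of a time.

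Means of the 8 cells were compared with the population of the same time over 8 time points, by exact permutation with p-values adjusted over the 10 genes. Pearson's r passed for *Fgfr3* (r = 0.975, adjusted p = 0.0130 by exact permutation), *Etv4* (r = 0.930, adjusted p = 0.0117 by exact permutation) and *Fgf4* (r = 0.878, adjusted p = 0.0169 by exact permutation). Their rho was 0.857, 0.857 and 0.690, with adjusted p of 0.0536, 0.0536 and 0.0991 by exact permutation. Without the 2 times farthest from the median r was 0.580, 0.801 and 0.651. Which genes passed depended on how the cells were averaged. With means of the log10 values, rho passed for *Fgf4*, *Fgfr3*, *Dusp6* and *Etv4* (adjusted p = 0.0384 for each by exact permutation), and r passed for *Etv5* too (r = 0.836, adjusted p = 0.0202 by exact permutation). *Dusp6* and *Etv5* had r of 0.764 and 0.773 (adjusted p of 0.0552 and 0.0534 by exact permutation), and *Spry2* and *Spry1* had 0.161 and 0.388. The cell means of *Spry2* ran from 0.0747 to 7.17 RPKM, while its populations had 25.9 to 65.8 FPKM. Those of *Etv5* ran from 18.4 to 142, beside 19.1 to 101 in the populations.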

How the data were processed

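RNA-seq was read from 4 deposited tables. The authors mapped reads with TopHat2 2.0.8b and computed FPKM with Cufflinks 2.1.1, per the submitters' processing notes (the study's methods name earlier releases of both), on mm9 for the SFEB, adherent and single-cell libraries and on mm10 for the E14 libraries. The adherent and E14 tables hold FPKM as the authors deposited them. The SFEB populations were deposited as ComBat-corrected FPKM, treated here as a score because 1256 values were below 0 (set to 0); the batches are not named. The single-cell table holds log10 values, deposited after quantile normalization by the authors. Cells above 0.5 RPKM were counted as expressing a gene. The tables hold no read counts, so no depth was computed.

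Samples were grouped by their labels. Genes reaching 1 FPKM in 3 or more samples were tested on log2(FPKM + 1) with limma 3.58.1 (R 4.3.3, trended empirical Bayes, two-sided, Benjamini-Hochberg over all genes tested, threshold 0.05). The E14 model held 4 groups, and each time course had 4 windows. The tests were tried on simulated data first. Correlations used two-sided permutation with 100000 resamples, or exact permutation for 8 time points (Python 3.11.15, numpy 2.4.6, pandas 2.3.3, scipy 1.17.1; plots with matplotlib 3.10.9). Promoters came from RefSeq (GRCm38.p6).

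The 10 genes, the wider pathway list and the marker lists were chosen with earlier results of these data known. The text names all 10 genes and, from the pathway list, up to the 3 largest rises and falls of a comparison, and for likeness the 2 genes with the highest r over the SFEB samples, among genes that passed the filter in the SFEB and adherent tables. *Egr1*, *Fabp7* and *Nanog* were named after their values were seen.

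Replicate numbers paired the E14 libraries for 2 comparisons, where deviations of same-numbered libraries from their group means correlated in all 3 pairs (0.199, 0.220 and 0.224 for WT day 4 against day 0; 0.136, 0.258 and 0.240 for Fyn-KO against WT at day 4), and not for the others. Alternatives were a pseudocount of 0.1, no filter on low values, quantile normalization, other windows, each SFEB series alone, a replicate block and leaving out each library.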

Additional observations from a re-analysis of the deposited data

Results flagged for a closer look

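In 70 windows of 4 to 7 samples, 5 had a sample farther from the rest than Dixon's test allows; chance gives about 1 in 20 groups. These were *Fgfr3* at 142 h in SFEB (25.3 FPKM, next 14.4), *Spry1* at 103 h in SFEB (18.0, next 11.04), *Fgf4* at 125.5 h in the adherent culture (11.2, next 4.58), *Spry1* at 144 h there (16.2, next 6.85) and *Spry4* at 8.5 h there (32.2, next 25.02). Samples of a window follow a time course, which the test does not allow for.

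Of 80 groups of 8 single cells, 32 had such a cell: 30 were the highest of their group and 2 the lowest. Of the 32, 28 were above 0.5 RPKM. The rate of about 1 in 20 groups does not hold for these cells, because many values are at or near 0. The highest cells, on the log10(RPKM + 1) scale, were as follows. *Fgf4* had 1.19 in cell 1 of 106 h. *Fgfr2* had 0.00276 in cell 6 of 0 h, 0.714 in cell 5 of 9 h, 0.782 in cell 7 of 38 h, 0.0692 in cell 9 of 60 h, 0.447 in cell 1 of 106 h, 0.692 in cell 8 of 144 h and 1.29 in cell 7 of 216 h. *Fgfr3* had 0.581 in cell 7 of 0 h, 0.0752 in cell 13 of 9 h, 0.196 in cell 1 of 38 h, 0.315 in cell 2 of 60 h and 0.0116 in cell 2 of 84 h.

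Among the inhibitors, *Dusp6* had 1.04 in cell 6 of 0 h, 1.32 in cell 5 of 9 h, 1.95 in cell 8 of 60 h and 2.27 in cell 10 of 144 h. *Spry1* had 1.07 in cell 6 of 0 h, 1.25 in cell 6 of 9 h, 1.79 in cell 3 of 84 h and 2.16 in cell 5 of 106 h. *Spry2* had 0.226 in cell 3 of 0 h, 0.539 in cell 1 of 38 h and 1.41 in cell 10 of 144 h, the cell that was also highest for *Dusp6*. *Spry4* had 0.709 in cell 5 of 0 h, 1.90 in cell 13 of 38 h, 1.01 in cell 2 of 84 h, 0.522 in cell 3 of 106 h and 1.26 in cell 13 of 216 h.

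*Etv5* had 2.09 in cell 11 of 144 h, where the next cell had 0.932. The lowest cells were cell 3 of 9 h for *Etv4*, with 0.205 where the next had 1.34, and cell 4 of 9 h for *Etv5*, with 0.965.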

How the results depend on the processing

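With the replicate block, *Fgf4*, *Fgfr2*, *Dusp6* and *Spry1* passed in WT over time and *Fgfr2* and *Spry1* in Fyn-KO over time, 4 and 2 genes and the same ones as without it, and 0 passed between genotypes at day 0, at day 4 or in the difference of the changes, so no call of these genes changed. Over all genes the block gave 38 calls in place of 21 at day 0 and 2 in place of 0 for the difference of the changes. Of 149 recomputed counts of these genes or their pairs, 123 stayed within 1.5 times, 23 were lower and 3 were higher. Of 1409 recomputed changes of single genes, 1278 kept direction and call, 70 lost the call, 11 gained it and 50 changed sign.

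Without the filter on low values 1 gene passed in Fyn-KO over time. In the parallel SFEB series alone 0, 0 and 5 passed at the 3 steps, with 2 samples a window. With 68 to 80.5 h counted in the second window, 4, 1 and 0 passed at the 3 adherent steps, so the adherent counts depend on where the windows are divided. Quantile normalization gave 2 at the first adherent step.

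When libraries were left out in turn, the count ran from 2 to 4 in WT over time, from 1 to 4 in Fyn-KO over time, from 1 to 2 at the first SFEB step and from 4 to 8 at the last adherent step. That count of 4 came without 216 h, when *Dusp6*, *Spry4*, *Etv4* and *Etv5* were lost.

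The sign changes listed here touched only values that had not passed the threshold. At the first SFEB step *Fgfr3* became 0.15 with a pseudocount of 0.1, 0.17 with quantile normalization, 0.000649 with 68 to 80.5 h moved and 0.32 in the parallel series. There *Fgfr1* became 0.13 and *Spry2* 0.0645 with the moved hours, *Spry2* 0.13 in the parallel series and *Etv5* 0.00265 in the first series. *Dusp6* at the second SFEB step became -0.13 (moved hours) and -0.0195 (first series), and *Spry1* at the last 0.34 (parallel series). In the adherent culture *Fgfr2* at the first step became 0.0782 (quantile) and 0.16 (moved hours), *Etv5* -0.23, and at the second step *Spry1* became 0.13 and *Spry2* -0.11, all with the moved hours. *Spry1* in the difference of the changes became 0.0416 with quantile normalization. The cause was not tested.

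Leaving out libraries gave these ranges across 0. *Spry2* in WT over time ran from -0.24 to 0.14 and *Spry4* in Fyn-KO over time from -0.15 to 2.41. At day 0 between genotypes *Fgf4* ran from -0.42 to 0.0380, *Fgfr2* from -0.12 to 0.25, *Dusp6* from -0.32 to 1.43, *Spry4* from -0.17 to 2.40 and *Etv5* from -0.0463 to 0.12. At day 4 *Spry4* ran from -0.10 to 0.56 and *Fgfr2* from -0.0591 to 0.64. In the difference of the changes the ranges were -0.47 to 0.33 for *Spry1*, -0.69 to 0.15 for *Fgfr1*, -0.0423 to 0.89 for *Etv5*, -1.21 to 0.54 for *Dusp6*, -2.13 to 0.43 for *Spry4*, -0.99 to 0.71 for *Etv4* and -0.17 to 0.53 for *Fgfr2*. At the first SFEB step they were -0.21 to 0.0432 for *Fgfr3* and -0.18 to 0.0155 for *Fgf4*, at the last SFEB step -0.29 to 0.0207 for *Spry1*, and at the first adherent step -0.25 to 0.0415 for *Fgfr2* and -0.0411 to 0.0480 for *Fgfr3*.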
